A study of Mus musculus with 4 samples.

Results

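Genes of killer lymphocytes were followed across the developing CD4 T cells of mice with and without the microRNA miR-142. The 10 genes are the granule genes Nkg7, Gzma and Gzmb, the death ligand gene Fasl, the natural killer receptor genes Klrd1 and Klra3, and the chemokine genes Ccl3, Ccl4, Ccl5 and Xcl1, 10 of the 19938 genes that had a probe set assigned to a single gene. Each gene had 1 such probe set. The genes were picked on the deposited values themselves, because several were high in wild-type (WT) Qa2- cells and low in miR-142-/- Qa2- cells. Their values in those contrasts are therefore given as a description, and no test was made of them.

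Expression was measured on 4 Affymetrix Mouse Gene 1.0 ST arrays, 1 for each of miR-142-/- Qa2+, miR-142-/- Qa2-, WT Qa2+ and WT Qa2- thymocytes. All mice were 8 weeks old and of the C57BL/6n strain. The miR-142-/- cells came from a pool of 4 thymi (1 female and 3 male), and the WT cells (genotype miR-142+/+) from a pool of 5 (3 female and 2 male). Both pools were depleted of CD8+ cells with beads and then sorted as CD4+CD8- cells, either CD69-Qa2+ (mature, close to leaving the thymus) or CD69+Qa2- (less mature). For miR-142-/- Qa2- cells, the label text has Qa2+ in 1 field (the description) but Qa2- in the title and the sorting entry, which were followed. The arrays ask how the loss of miR-142 alters each population (miR-142-/- minus WT, the genotype difference) and how the populations differ within a genotype (Qa2+ minus Qa2-, the stage difference). Each of the 4 comparisons shares an array with 2 others, so that the genotype difference in Qa2- cells and the stage difference in WT both rest on the WT Qa2- array. There are no replicates, so no difference has a replicate check or a p-value.

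Cytotoxic lymphocytes kill by releasing granules in which perforin opens the way for granzymes, serine proteases that trigger death of the target cell. They can also kill through Fas ligand, which engages the death receptor Fas, and they sense their targets through lectin-like receptors of the natural killer gene complex. Such cells also secrete the chemokines CCL3, CCL4, CCL5 and XCL1, which draw in other leukocytes. In the thymus, conventional CD4 precursors are not cytotoxic cells, and these genes are known mainly from CD8 T cells, natural killer (NK) cells and innate-like T cells.

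The microRNA removed in the miR-142-/- mice gives a pair of mature strands, shown here with the seed (bases 2 to 8) in capitals, as RefSeq lists them:
mmu-miR-142a-5p (GRCm38.p6 chr11:87756867-87756887, plus strand): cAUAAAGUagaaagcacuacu
mmu-miR-142a-3p (GRCm38.p6 chr11:87756903-87756925, plus strand): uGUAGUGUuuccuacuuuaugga
The strands have different seeds. Whether the 10 genes carry matches to either seed was not examined.

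Of the 10 genes, 7 had a promoter in the RefSeq table (build GRCm38.p6), and Klrd1, Ccl4 and Ccl5 had no entry there. The last 150 bases before the gene start are printed for 4 of them, 5′ to 3′ on the strand of the gene. Nkg7 and Gzmb are shown as genes high in WT Qa2- cells, Gzma as a granule gene with small differences, and Ccl3 as the gene that was highest in miR-142-/- Qa2+ cells. Capitals mark matches, on either strand, to the core letters of 4 motifs that are spelled out after the sequences:
Nkg7 (GRCm38.p6 chr7:43436988-43437137, plus strand): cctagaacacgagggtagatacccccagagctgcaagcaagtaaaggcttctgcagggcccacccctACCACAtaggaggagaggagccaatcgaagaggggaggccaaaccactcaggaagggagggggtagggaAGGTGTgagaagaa
Gzmb (GRCm38.p6 chr14:56262335-56262484, minus strand): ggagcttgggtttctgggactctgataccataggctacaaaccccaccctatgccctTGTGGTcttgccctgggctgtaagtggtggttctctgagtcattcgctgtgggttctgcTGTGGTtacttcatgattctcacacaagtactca
Gzma (GRCm38.p6 chr13:113100982-113101131, minus strand): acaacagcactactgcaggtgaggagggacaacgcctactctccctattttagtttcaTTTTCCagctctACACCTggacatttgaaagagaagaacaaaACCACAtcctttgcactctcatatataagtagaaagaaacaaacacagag
Ccl3 (GRCm38.p6 chr11:83649379-83649528, minus strand): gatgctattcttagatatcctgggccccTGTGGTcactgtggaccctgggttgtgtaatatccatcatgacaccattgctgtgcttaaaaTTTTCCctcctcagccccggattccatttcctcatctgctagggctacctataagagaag
Over 250 bases before the start, the letters TGTGGT of the RUNX site were found in 5 of the 7 promoters and in 14.0% of 32851 promoters in the table. Gzmb held them at 93 and at 34 bases before the start, Nkg7 at 83, Gzma at 50, Ccl3 at 122 and Xcl1 at 227. The letters AGGTGT of the T-box site stood in 2 of the 7, Nkg7 (14 bases before the start) and Gzma (80 bases), and in 11.8% of all promoters. The letters GGAAAA of the NFAT site were found in 4 of the 7 (Gzma, Klra3, Fasl and Ccl3) and in 20.4% of all promoters. The TATA box letters TATAAA occurred in 1 of the 7, Klra3, and in 12.4% of all promoters. No match of one motif overlapped a match of another. Nkg7 and Gzma hold both RUNX and T-box letters. How the letters relate to the array values was not tested. A match of letters is a description and not a binding site.

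The labels were checked on the same arrays. Mir142 read log2 4.88 and 5.29 in miR-142-/- Qa2+ and Qa2- cells, against 9.41 and 10.11 in WT Qa2+ and Qa2- cells. Cd69, which marks the less mature cells, read 10.55 and 11.51 in miR-142-/- Qa2+ and Qa2- cells and 10.55 and 11.32 in WT Qa2+ and Qa2- cells, so the miR-142-/- Qa2- array followed its title. Cd4 lay between 12.36 and 12.64 on every array and Cd8a between 7.25 and 7.53. Xist, transcribed from the inactive X, read 4.83 and 5.06 in miR-142-/- and 12.14 and 12.67 in WT cells. On the Y chromosome, Kdm5d, Uty and Eif2s3y read 9.72 to 10.58 in miR-142-/- and 4.29 to 5.09 in WT cells. These values go against pools of both sexes, and genotype and sex of the cells measured cannot be told apart in any genotype difference. The 10 genes lie on chromosomes 1, 6, 7, 11, 13 and 14, and none is sex-linked. In these bulk samples, fewer cells that express a gene and less RNA per cell cannot be told apart either.

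A gene was counted as above background when its mean over the 4 arrays exceeded log2 5.87. That is the 95th percentile of the means of 1194 olfactory or vomeronasal receptor genes, taken as not expressed in these cells. This left 12591 genes, and 9 of the 10 passed. Ccl4 did not, with a mean of 5.77. A difference was counted at 2-fold or more on the values as deposited, also where the dimmer value lay below background. Log2 differences and their medians use the deposited values too. Only in the folds printed here was a dimmer value below log2 5.87 replaced by that threshold, which makes the fold a lower bound ("at least"). Differences of the receptor genes, which scatter at low signal, had a standard deviation of 0.15 for genotype in Qa2- cells, 0.18 for genotype in Qa2+ cells, 0.21 for stage in miR-142-/- and 0.22 for stage in WT.

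In Qa2- cells, 6 of the 10 genes were lower by 2-fold or more in miR-142-/- than in WT, namely Nkg7, Gzmb, Klrd1, Ccl5, Xcl1 and Fasl, and 0 were higher. Among all genes above background, 1.29% were lower and 1.04% higher by this measure. The genes were chosen on this contrast, so nothing is read from the gap. In Qa2+ cells, only Ccl5 of the 10 was at least 2-fold lower in miR-142-/- (1.86% of all genes) and only Ccl3 was higher (1.43% of all genes). Between stages in miR-142-/-, Klra3 and Xcl1 were at least 2-fold lower in Qa2+ than Qa2- cells (0.818% of all genes) and Ccl3 and Nkg7 were higher (0.715%). Between stages in WT, 5 of the 10 were lower in Qa2+ cells (Gzmb, Xcl1, Klra3, Klrd1 and Nkg7, against 0.731% of all genes) and 0 were higher (0.524%). Members were chosen as high in WT Qa2- cells, so that count too is a description. As deposited, 41.8% of all genes counted between stages in WT were higher in Qa2+ cells, a share of 57.6% with each array centred on its median and 54.3% after quantile normalization.

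The median log2 difference of the 10 genes was -1.27 for genotype in Qa2- cells and -0.28 for genotype in Qa2+ cells. It was 0.19 for stage in miR-142-/- and -1.03 for stage in WT. The median of all genes above background was 0.00, 0.00, -0.06 and -0.06 in the same order. WT Qa2- was the highest array for 7 of the 10 genes, and for 28.0% of all genes above background. Ccl3 and Gzma were highest in miR-142-/- Qa2+ cells (20.3% of all genes above background) and Ccl4 in WT Qa2+ cells (21.6%). None of the 10 was highest in miR-142-/- Qa2- cells (30.1%), where several had been picked as low. The number of the 10 that read above background was 6 in miR-142-/- Qa2+, 5 in miR-142-/- Qa2-, 8 in WT Qa2+ and 8 in WT Qa2- cells. In WT Qa2- cells 12623 of all 19938 genes did so, and this number was not computed for the other arrays. Several members were also picked as high in WT Qa2- and low in miR-142-/- Qa2- cells. Nothing is therefore read from the counts of the 10 per array.

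**Figure D1:**
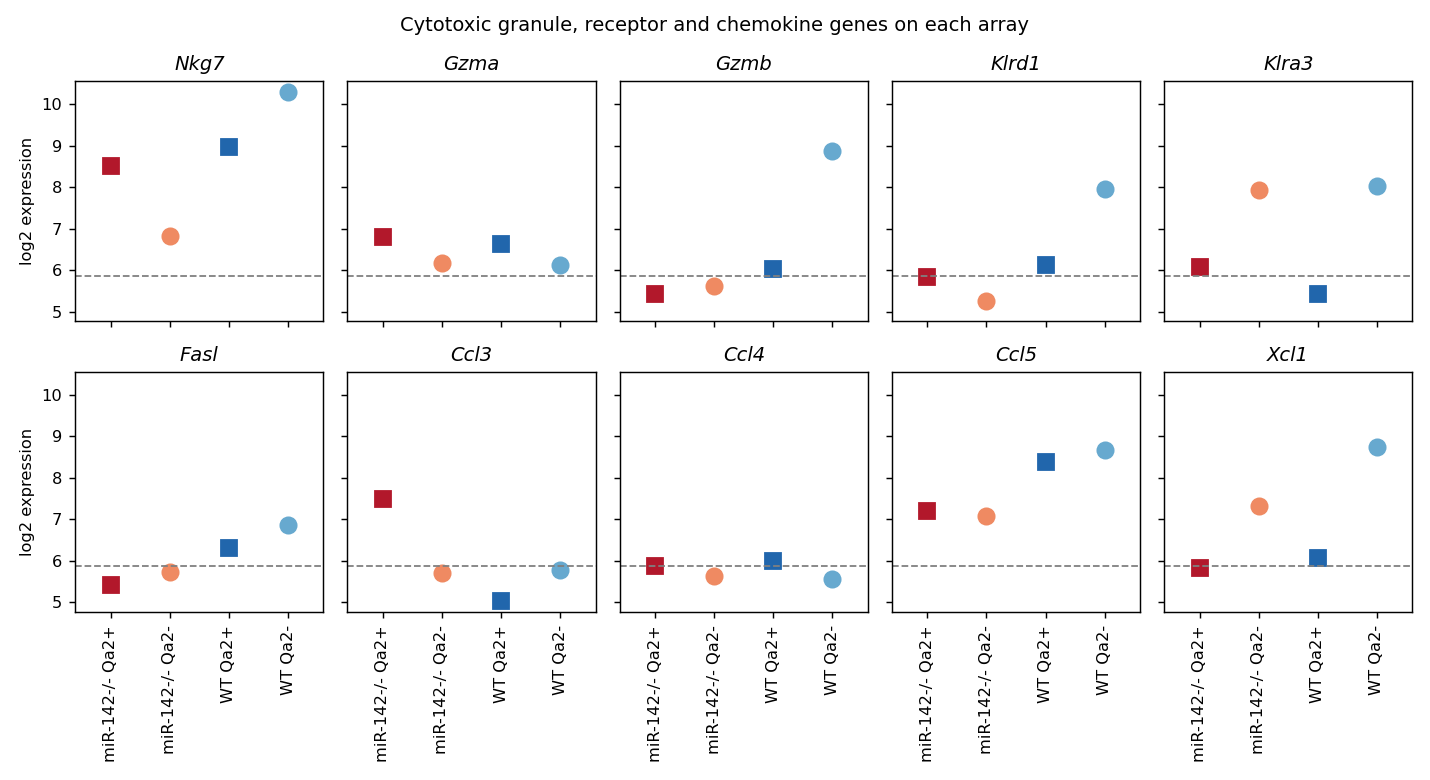
Log2 expression (y axis) of each of the 10 genes on the 4 arrays (x axis), 1 point per array, with the background threshold of log2 5.87 as a dashed line. Nkg7, Gzmb, Klrd1 and Xcl1 stand highest in WT Qa2- cells, Ccl3 in miR-142-/- Qa2+ cells, and Gzma and Ccl4 vary little.

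Nkg7 encodes a membrane protein of cytotoxic granules that takes part in granule release. It read log2 8.52 in miR-142-/- Qa2+ and 6.83 in miR-142-/- Qa2- cells, against 8.97 in WT Qa2+ and 10.29 in WT Qa2- cells. The miR-142-/- Qa2- array was the low one and the WT Qa2- array the high one, with both Qa2+ arrays in between and close to each other. In Qa2- cells Nkg7 was thus 11.1-fold lower in miR-142-/- than in WT (log2 difference -3.47), and among Qa2+ cells it was 1.37-fold lower (-0.45). Only 2 genes above background, Xist (-7.61) and Mir142 (-4.82), had a more negative genotype difference in Qa2- cells. The members were picked on this contrast, so the rank of Nkg7 is a description. The stage differences ran in opposite directions, with Qa2+ cells 3.23-fold above Qa2- cells in miR-142-/- (1.69) and 2.50-fold below them in WT (-1.32).

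Gzmb encodes granzyme B, the granzyme that cleaves caspases and Bid in the target cell. Its values were log2 5.43 in miR-142-/- Qa2+, 5.62 in miR-142-/- Qa2-, 6.02 in WT Qa2+ and 8.88 in WT Qa2- cells. It read clearly above background on the WT Qa2- array alone, just above it in WT Qa2+ cells and below it on both miR-142-/- arrays. The gene was at least 8.09-fold lower in miR-142-/- than in WT Qa2- cells and 7.29-fold lower in Qa2+ than Qa2- cells of WT. Gzma, whose product granzyme A is a trypsin-like granule protease, behaved otherwise. Gzma read log2 6.80 and 6.17 in miR-142-/- Qa2+ and Qa2- cells, and 6.64 and 6.12 in WT Qa2+ and Qa2- cells. The genotypes nearly matched, at log2 differences of 0.05 in Qa2- and 0.16 in Qa2+ cells, and both Qa2+ arrays were higher than both Qa2- arrays. The stage difference was 1.55-fold in miR-142-/- and 1.43-fold in WT, above the scatter of receptor genes but under 2-fold.

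Fasl, the gene of Fas ligand, read log2 5.42 and 5.74 in miR-142-/- Qa2+ and Qa2- cells, both below background. In WT it read 6.32 in Qa2+ and 6.87 in Qa2- cells, both above it. Fasl was at least 2.00-fold lower in miR-142-/- than in WT Qa2- cells, and at least 1.37-fold lower in Qa2+ cells. Its receptor gene Fas read 8.89 and 9.62 in miR-142-/- Qa2+ and Qa2- cells, and 9.05 and 9.34 in WT Qa2+ and Qa2- cells. Of the 8 listed genes of the Fas death pathway, 5 had a single-gene probe set, all 5 were above background, and 0 differed 2-fold in any of the 4 comparisons. They include Fadd, the adaptor of the receptor, at 7.55 to 7.83, and Cflar, an inhibitor of caspase-8 activation, at 9.81 to 10.25.

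Klrd1 encodes CD94, which pairs with products of the Klrc genes to form receptors for the non-classical class I molecule Qa-1. The gene read log2 5.84 in miR-142-/- Qa2+ and 5.26 in miR-142-/- Qa2- cells, and 6.13 in WT Qa2+ and 7.96 in WT Qa2- cells. The WT Qa2- array stood apart and the other 3 lay near or below background. Klrd1 was at least 4.28-fold lower in miR-142-/- than in WT Qa2- cells, and 3.57-fold lower in Qa2+ than Qa2- cells of WT. Klra3 encodes a member of the Ly49 family of class I receptors. It read 6.07 in miR-142-/- Qa2+, 7.92 in miR-142-/- Qa2-, 5.42 in WT Qa2+ and 8.02 in WT Qa2- cells. Both Qa2- arrays were high and both Qa2+ arrays low, whatever the genotype. The difference between miR-142-/- and WT Qa2- cells was -0.10. Klra3 was 3.61-fold lower in Qa2+ than Qa2- cells of miR-142-/- and at least 4.46-fold lower in WT.

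Short probes can bind the RNA of close Ly49 paralogs. A further 3 probe sets list Klra3 together with other Klra genes, and these were assigned to no gene. The probe set that lists 7 genes read 4.61 and 6.27 in miR-142-/- Qa2+ and Qa2- cells, against 4.87 and 7.70 in WT Qa2+ and Qa2- cells. The one with 5 genes read 5.33 and 7.10 in miR-142-/- Qa2+ and Qa2- cells, against 5.13 and 7.72 in WT. The one with 3 genes read 4.69 and 5.41 in miR-142-/- Qa2+ and Qa2- cells, against 4.43 and 7.18 in WT. In all 3 the Qa2- arrays were above the Qa2+ arrays of the same genotype, and WT Qa2- cells were above miR-142-/- Qa2- cells, so the near equality of the Qa2- arrays holds for the single-gene Klra3 probe set only.

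Ccl3 encodes the inflammatory chemokine MIP-1 alpha. It read log2 7.49 in miR-142-/- Qa2+ cells, against 5.72 in miR-142-/- Qa2-, 5.03 in WT Qa2+ and 5.77 in WT Qa2- cells. The miR-142-/- Qa2+ array was the only one above background. Ccl3 was at least 3.08-fold higher there than in WT Qa2+ cells and at least 3.08-fold higher than in miR-142-/- Qa2- cells, the bounds being equal because both are set by the threshold. Ccl4, the neighbouring gene of MIP-1 beta, did not share this pattern. It read 5.88 and 5.63 in miR-142-/- Qa2+ and Qa2- cells, and 6.01 and 5.56 in WT Qa2+ and Qa2- cells. These values lie at the threshold, and Ccl4 was not counted in any comparison.

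Ccl5 encodes RANTES, a chemokine that memory and innate-like T cells store. It read log2 7.20 and 7.07 in miR-142-/- Qa2+ and Qa2- cells, against 8.37 and 8.67 in WT Qa2+ and Qa2- cells. Both miR-142-/- arrays were below both WT arrays. Ccl5 was 3.02-fold lower in miR-142-/- than in WT Qa2- cells, among Qa2+ cells 2.24-fold lower, and it was the only one of the 10 counted in both genotype comparisons. Its stage differences were small, at 0.13 in miR-142-/- and -0.30 in WT. Xcl1 encodes lymphotactin, which attracts cross-presenting dendritic cells. It read 5.82 in miR-142-/- Qa2+, 7.32 in miR-142-/- Qa2-, 6.08 in WT Qa2+ and 8.74 in WT Qa2- cells. Both Qa2- arrays were above both Qa2+ arrays, and WT Qa2- was the highest. Xcl1 was 2.67-fold lower in miR-142-/- than in WT Qa2- cells. It was at least 2.74-fold lower in Qa2+ than Qa2- cells of miR-142-/- and 6.31-fold lower in WT.

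The 10 genes thus did not share 1 profile. Gzmb and Klrd1 were high on the WT Qa2- array alone, and Nkg7 was high there and lowest in miR-142-/- Qa2- cells. Klra3 and Xcl1 were lower in Qa2+ than Qa2- cells in both genotypes. Xcl1 was also lower in miR-142-/- than in WT Qa2- cells, by more than 2-fold. Ccl5 and Fasl were lower in miR-142-/- at both stages, though Fasl by less than 2-fold in Qa2+ cells. Ccl3 was above background in miR-142-/- Qa2+ cells alone, and Gzma and Ccl4 differed less than 2-fold everywhere.

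**Figure D2:**
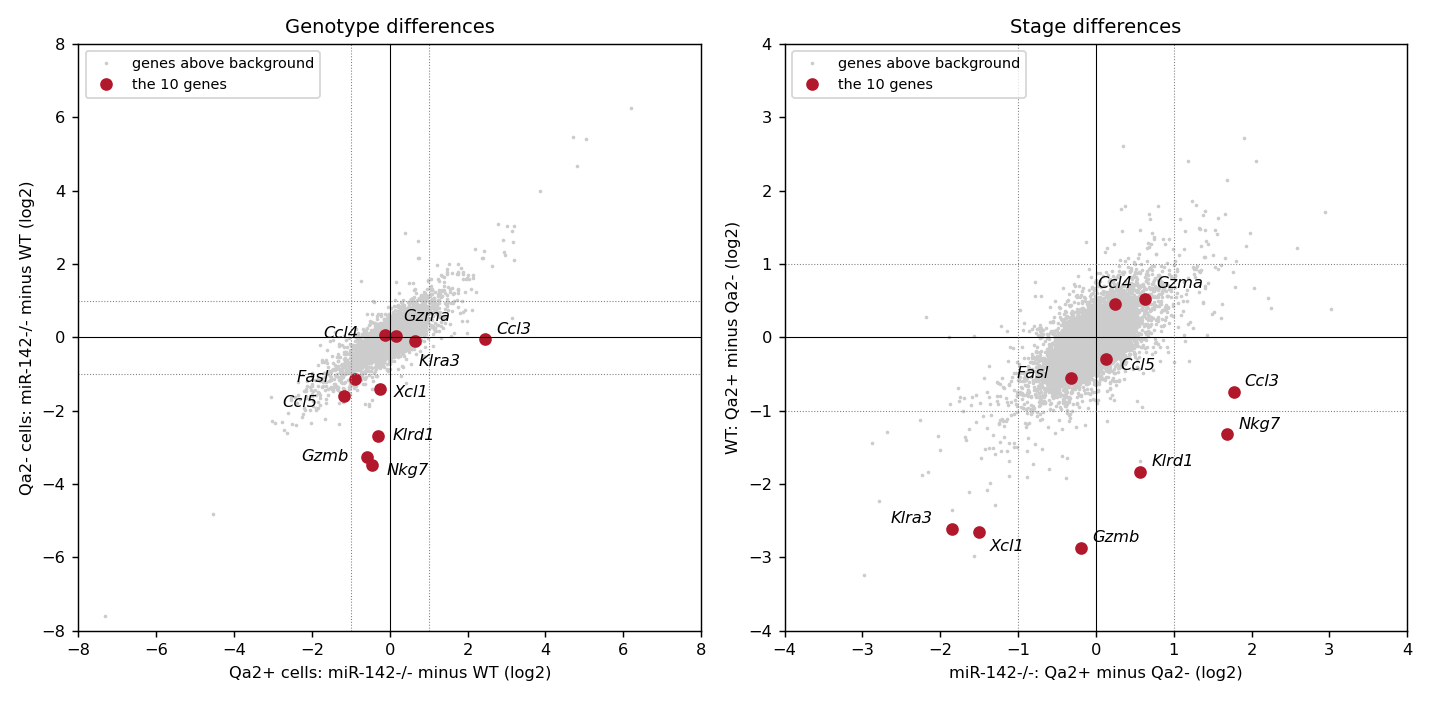
Log2 differences of the 10 genes (red) and of all genes above background (grey). The left panel sets the genotype difference in Qa2- cells (y axis) against that in Qa2+ cells (x axis), and the right panel the stage difference in WT (y axis) against that in miR-142-/- (x axis), with dotted lines at 2-fold; Gzmb, Nkg7 and Klrd1 lie low on the y axis of the left panel and near 0 on its x axis, and Ccl3 lies far right and near 0 on the y axis.

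Genes with related roles were taken from 9 lists, which named 152 genes, 140 of them with a single-gene probe set and 80 above background. The granule contents list held 18 further granule genes, of which 10 were above background and 8 were below it on every array (Gzmc, Gzmd, Gzme, Gzmf, Gzmg, Gzmk, Gzmn and Serpinb9b). Of those above background, 0 differed 2-fold between genotypes, and the list's median genotype difference was -0.12 in Qa2- and 0.25 in Qa2+ cells. Prf1, the gene of perforin, read 7.77 and 6.84 in miR-142-/- Qa2+ and Qa2- cells, and 7.92 and 7.36 in WT Qa2+ and Qa2- cells. Perforin RNA thus did not stand high on the WT Qa2- array. Cst7, a cathepsin inhibitor of granules, was the only one of the list counted, at 2.20-fold higher in Qa2+ than Qa2- cells of miR-142-/- (8.11 and 6.97). Its values in WT were 7.78 in Qa2+ and 7.75 in Qa2- cells, so it was low in miR-142-/- Qa2- cells alone. Serpinb9, the inhibitor that protects a killer cell from its own granzyme B, was 1.63-fold higher in miR-142-/- than in WT Qa2+ cells and 1.64-fold higher in Qa2- cells.

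The genes of granule movement and release were all measured, and all 14 were above background. In the genotype comparisons 0 differed 2-fold, with medians of -0.15 in Qa2- and -0.28 in Qa2+ cells. Sytl2, a Rab27 effector that tethers granules to the membrane, read 8.72 and 10.09 in miR-142-/- Qa2+ and Qa2- cells, and 9.17 and 10.67 in WT Qa2+ and Qa2- cells. It was higher on both Qa2- arrays and was the only one counted, with Qa2+ cells 2.59-fold below Qa2- cells in miR-142-/- and 2.84-fold below them in WT.

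Among 36 listed NK receptors and adaptors, 31 had a single-gene probe set and 12 were above background by their mean. Of these, 3 were lower by 2-fold or more in miR-142-/- than in WT Qa2- cells (Slamf7, Klrb1f and Fcer1g) and 0 were higher, with a median of -0.52. When genes above background on at least 1 array were admitted, the lower ones numbered 8, now with Klra5, Klrb1c, Klrc1, Klrk1 and Klrc2. These 5 passed that filter on the WT Qa2- array alone, so their lower value elsewhere was fixed by the filter and supports nothing. In Qa2+ cells only Tigit was counted, as lower in miR-142-/-. The number of the 31 genes above background was 12 in miR-142-/- Qa2+, 11 in miR-142-/- Qa2-, 12 in WT Qa2+ and 17 in WT Qa2- cells. The last count includes the 5 genes that passed on that array alone, so nothing is read from its excess.

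Of 31 other chemokine ligand genes, 30 had a probe set, 20 were below background on every array and 0 differed 2-fold in any comparison. Cxcl10, an interferon-induced chemokine, had the widest genotype difference in Qa2- cells among the ligands above background on any array, at 6.55 and 6.53 in miR-142-/- Qa2+ and Qa2- cells and 6.78 and 6.99 in WT Qa2+ and Qa2- cells. Among receptor genes for these chemokines, Ccr1, Ccr3 and Xcr1 were below background on every array. Of 16 effector cytokine genes, 9 of the 15 with a probe set were above background and 0 differed 2-fold between genotypes. Cd40lg and Tnfsf11, ligands of CD40 and RANK, were lower in Qa2+ than Qa2- cells, by 2.28-fold and 2.22-fold in miR-142-/- and by 2.56-fold and 2.20-fold in WT.

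Of 13 listed transcription factors of cytotoxic cells, 10 were above background and 1 was lower in miR-142-/- than in WT Qa2- cells. This was Tbx21, the gene of T-bet, which promotes cytotoxic and interferon gamma programmes. It read 6.20 and 6.21 in miR-142-/- Qa2+ and Qa2- cells, against 6.87 and 7.47 in WT Qa2+ and Qa2- cells. It was 2.40-fold lower in miR-142-/- Qa2- cells. Zbtb16, the gene of PLZF and a factor of innate-like T cells, read 6.99 and 6.87 in miR-142-/- Qa2+ and Qa2- cells, against 8.71 and 7.55 in WT Qa2+ and Qa2- cells. PLZF RNA was 3.31-fold lower in miR-142-/- than in WT Qa2+ cells, and its highest array was WT Qa2+ rather than WT Qa2-. Genes of strong T cell receptor signals did not differ 2-fold between genotypes in either population (0 of 12). Between stages, 7 of these 12 were lower in Qa2+ cells of miR-142-/- and 3 in Qa2+ cells of WT, among them Nr4a2, 4.09-fold and 2.54-fold lower.

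The genes whose profile was most like that of the high members were then ranked by the margin of the WT Qa2- array over the highest of the other 3, among the 12623 genes above background in WT Qa2- cells. Because several genes read below background elsewhere, the other arrays were raised to the threshold where they lay under it, which makes such a margin a lower bound. This floor was added after the values had been seen. With it, 12 genes had a margin of at least 1 on the log2 scale, and 14 with the values as deposited. The members among the 12 were Gzmb (2.87, rank 1), Klrd1 (1.83, rank 2), Xcl1 (1.42, rank 6) and Nkg7 (1.32, rank 8). Members were picked as high in WT Qa2- cells, so their ranks are a description and nothing is read from them. The margin was 0.55 for Fasl, 0.30 for Ccl5 and 0.10 for Klra3. The 8 others were Klra5 (at least 1.75), the gene of Ly49E, Fgl2 (1.68), Klrb1c (at least 1.55), the gene of NK1.1, Aqp9 (1.39), Cxcr6 (1.20), Slamf7 (1.14), Klrc1 (at least 1.13), the gene of NKG2A, and Itga1 (at least 1.09), an integrin chain. Klrk1, the gene of NKG2D, and Klrc2 had margins of at least 0.93 and 0.78. Genes whose margin is given as "at least" entered the ranking through the WT Qa2- array alone, so their being highest there was fixed by the filter.

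Klra5 read 3.79 and 4.07 in miR-142-/- Qa2+ and Qa2- cells, against 4.67 and 7.62 in WT Qa2+ and Qa2- cells. Klrb1c read 4.41 and 4.41 in miR-142-/- Qa2+ and Qa2- cells, against 5.31 and 7.42 in WT Qa2+ and Qa2- cells. Both crossed the background threshold on the WT Qa2- array alone. Cxcr6, a chemokine receptor of innate-like and tissue-resident T cells, read 6.07 and 6.21 in miR-142-/- Qa2+ and Qa2- cells, against 7.37 and 8.56 in WT Qa2+ and Qa2- cells. It was above background everywhere and, like Ccl5, lower on both miR-142-/- arrays.

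By distance between centred profiles over the 4 arrays, the genes nearest to Nkg7 outside the 10 were Fgl2 (0.97), Prim1 (1.18), Cxcr6 (1.30), Slamf7 (1.35) and Pole (1.39). Among the 10 the nearest was Klrd1 (0.99), followed by Ccl5 (1.44). Fgl2, Slamf7 and Klrd1 read below background on both miR-142-/- arrays, and these values entered the distance as deposited. Prim1 and Pole encode a DNA primase subunit and a replicative DNA polymerase. Prim1 read 7.39 and 6.66 in miR-142-/- Qa2+ and Qa2- cells, against 8.02 and 8.47 in WT Qa2+ and Qa2- cells.

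**Figure D3:**
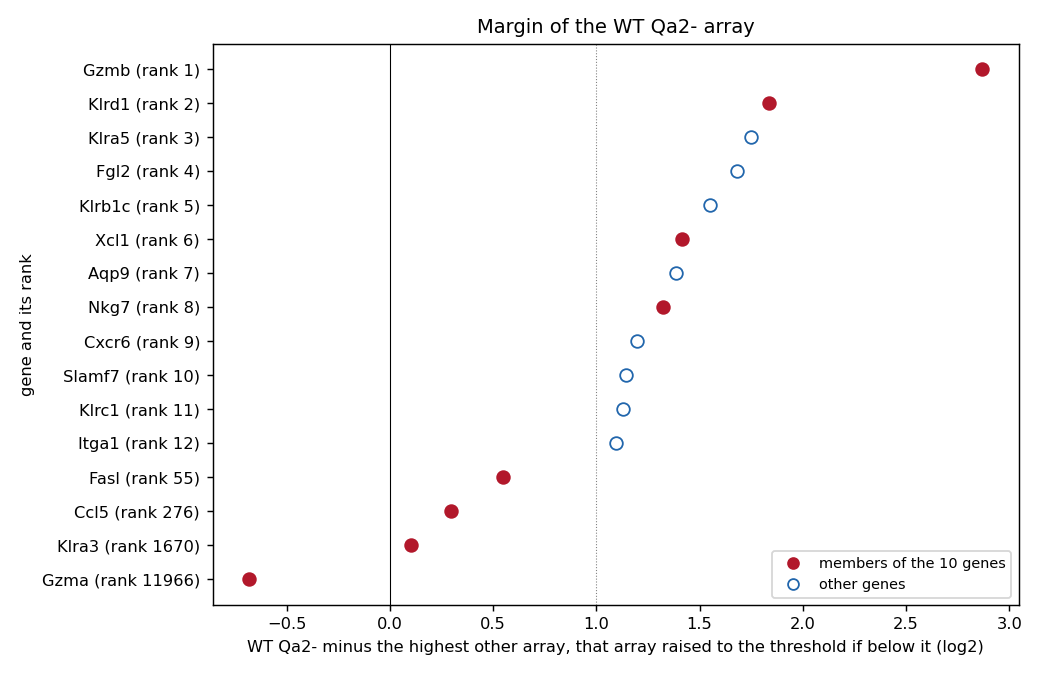
Margin of the WT Qa2- array over the highest other array (x axis, log2), with that array raised to the background threshold where it read below it, for the 12 genes with a margin of at least 1 (dotted line) and the other ranked members, each with its rank among 12623 genes (y axis). Of the 12, 4 are members (filled red) and 8 are not (open blue). The members were picked as high in WT Qa2- cells, so their ranks are a description.

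Klrd1 and Klra3 lie in the natural killer gene complex of chromosome 6, a cluster of C-type lectin genes, and its genes were looked at in chromosomal order. This set, 39 genes from Klrb1a to Klra2 in the RefSeq order, was chosen after the values had been seen. Of its 21 Klr genes, 2 read above background in miR-142-/- Qa2+, 2 in miR-142-/- Qa2-, 2 in WT Qa2+ and 8 in WT Qa2- cells. The other 13 were below background on every array. The WT Qa2- array was the highest for all 8 that were detected, which follows in part from their passing on that array alone in 5 cases. Of the 8, 4 had a margin of at least 1 over the threshold or the highest other array (Klrd1, Klra5, Klrb1c and Klrc1). Of the 18 other genes of the interval, 7, 6, 7 and 7 read above background on the same arrays, and of the 7 detected, 0 were highest in WT Qa2- cells. Klrd1, Klrk1, Klrc3, Klrc2 and Klrc1 stand at places 25 to 29 of the order. Of these 5, Klrc3 was below background on every array. The other 4 were highest in WT Qa2- cells, which the filter or the picking of the members had set. Klrb1f was a Klr gene above background on every array, at 6.80 and 5.98 in miR-142-/- Qa2+ and Qa2- cells and 7.26 and 7.39 in WT Qa2+ and Qa2- cells.

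**Figure D4:**
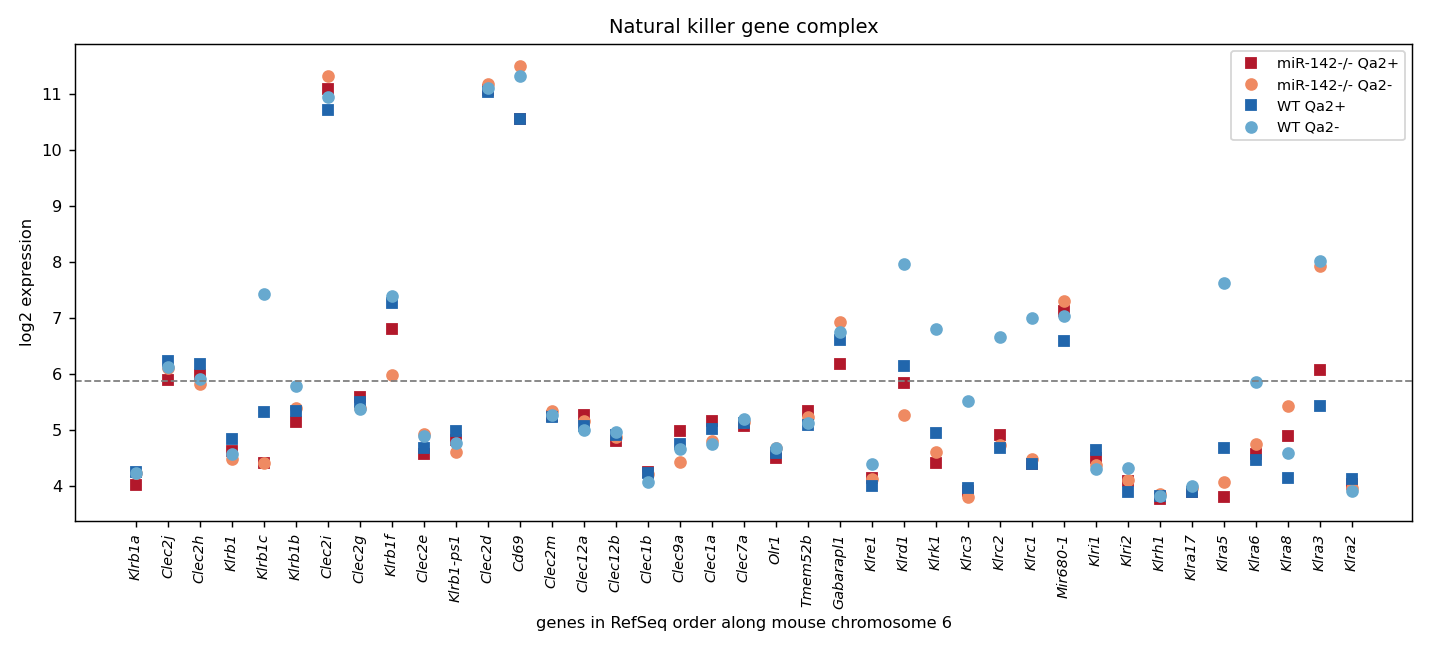
Log2 expression (y axis) on the 4 arrays for 39 genes of the natural killer gene complex in RefSeq order along chromosome 6 (x axis), with the background threshold of log2 5.87 dashed. Klrb1c, Klrd1, Klrk1, Klrc2, Klrc1 and Klra5 stand above the threshold in WT Qa2- cells (light blue circles), and all of them but Klrd1 on no other array.

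The chromosome 11 cluster of CC chemokines holds Ccl3, Ccl4 and Ccl5, and its other measured genes, also picked after the values had been seen, were read beside them. Ccl9 read 6.26 and 5.54 in miR-142-/- Qa2+ and Qa2- cells, and 5.66 and 5.46 in WT Qa2+ and Qa2- cells. Like Ccl3, it was above background in miR-142-/- Qa2+ cells alone, though under 2-fold from the others. Ccl6 was below background on every array, between 5.46 and 5.73.

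Of 6 listed markers of mast cells and basophils, Cpa3 and Mcpt8 were high on the same array as Ccl3. Cpa3, a mast cell protease gene, read 8.60 and 5.58 in miR-142-/- Qa2+ and Qa2- cells, and 5.46 and 5.07 in WT Qa2+ and Qa2- cells. Mcpt8, a basophil protease gene, read 7.44 and 5.08 in miR-142-/- Qa2+ and Qa2- cells, and 4.88 and 5.01 in WT Qa2+ and Qa2- cells. Both were above background in miR-142-/- Qa2+ cells alone, at least 6.67-fold (Cpa3) and 2.97-fold (Mcpt8) higher than in WT Qa2+ cells. Of the 6 listed markers, 4 were above background in miR-142-/- Qa2+ cells and 2 on each other array, and their mean was log2 6.58 in miR-142-/- Qa2+, 5.51 in miR-142-/- Qa2-, 5.52 in WT Qa2+ and 5.51 in WT Qa2- cells. Cpa3 and Mcpt8 are part of these means, and means without them were not computed. Kit and Gata2 were above background on every array, with values of 7.42 to 7.83 and 6.18 to 6.48. Kit was highest in WT Qa2- cells, by 0.38 over the next array. Fcer1a and Ms4a2, chains of the IgE receptor, were below background on every array. The part of such cells in the Ccl3 value was not tested.

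**Figure D5:**
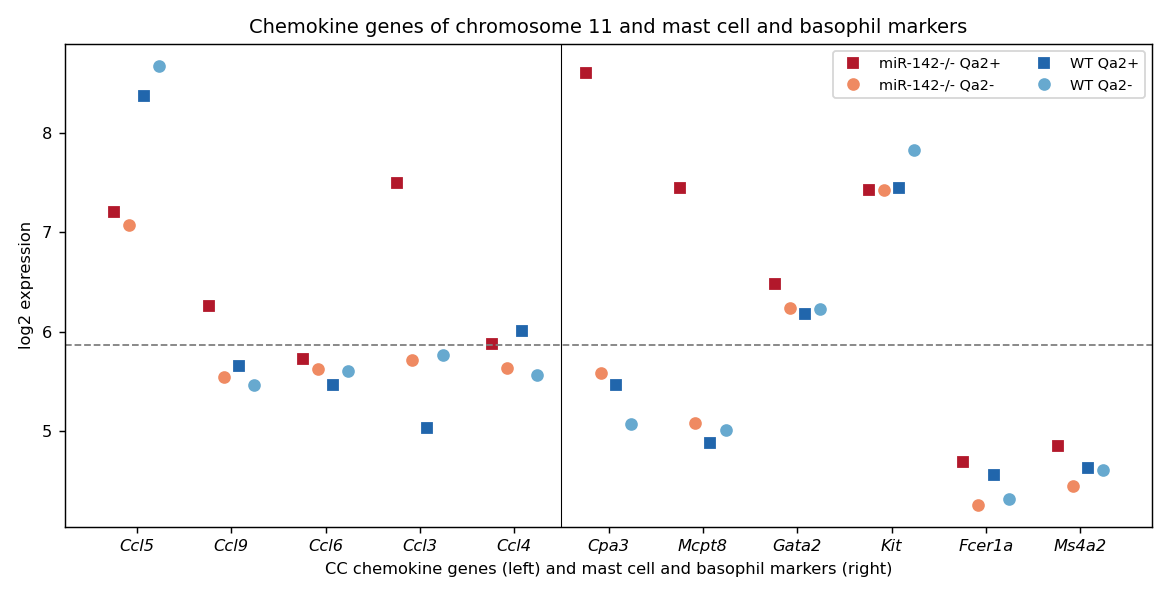
Log2 expression (y axis) of 5 CC chemokine genes of chromosome 11 (left of the line) and of 6 mast cell and basophil markers (right of the line) on the 4 arrays, with the background threshold of log2 5.87 dashed. Ccl3, Ccl9, Cpa3 and Mcpt8 are above the threshold on the miR-142-/- Qa2+ array (dark red squares) alone.

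Markers of other cells that express the 10 genes were read on the same arrays. NK cell markers had a mean of log2 5.31 and 5.32 in miR-142-/- Qa2+ and Qa2- cells, and 5.37 and 5.65 in WT Qa2+ and Qa2- cells, with 5, 5, 4 and 6 of 10 above background in that order. Of the 10, Ncr1, Klra8, Klre1 and Klri2 were below background on every array, and Eomes read 5.90 in WT Qa2- cells, at the threshold. Of the other NK markers, Fcer1g was 2.04-fold lower in miR-142-/- than in WT Qa2- cells (6.06 and 7.09). Klrb1c, which is also on the invariant NKT list, was at least 2.93-fold lower there and was above background in WT Qa2- cells alone. Markers of invariant NKT cells had a mean of 7.77 and 7.96 in miR-142-/- Qa2+ and Qa2- cells, against 8.34 and 8.82 in WT Qa2+ and Qa2- cells. Of these 11 markers, 9, 9, 9 and 10 were above background in that order, and Il4 was below it on every array. In Qa2- cells 4 of them were lower in miR-142-/- by 2-fold or more (Cxcr6, Tbx21, Il2rb and Cd44), and in Qa2+ cells 3 were (Zbtb16, Il2rb and Cxcr6). The WT Qa2- array was the highest for the means of both the NK and the NKT list. The NK means, however, lay below the background threshold on every array. Klrb1c is shared by these lists, so they are not independent, and its range was the widest on the NK list (3.01). Klrb1c read 7.42 in WT Qa2- cells, against 5.31 in WT Qa2+ and 4.41 in both miR-142-/- populations. Means without Klrb1c were not computed, and the part of such cells was not tested.

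Markers of CD8 T cells did not follow the WT Qa2- array. Their mean was log2 7.90 and 7.91 in miR-142-/- Qa2+ and Qa2- cells, and 8.55 and 8.01 in WT Qa2+ and Qa2- cells, with all 6 above background throughout. Cd8b1 read 8.75 and 9.24 in miR-142-/- Qa2+ and Qa2- cells, against 9.98 and 9.97 in WT Qa2+ and Qa2- cells. CD4 T cell markers had means of 11.81 and 12.09 in miR-142-/- Qa2+ and Qa2- cells and 11.67 and 11.96 in WT Qa2+ and Qa2- cells. All 9 of them were above background on every array. Regulatory T cell markers had means of 9.40 and 9.28 in miR-142-/- Qa2+ and Qa2- cells, against 10.31 and 9.73 in WT Qa2+ and Qa2- cells, highest on the WT Qa2+ array. The means of the gamma-delta T cell list (6.27 to 6.60), the B cell list (5.27 to 5.55) and the myeloid and dendritic cell list (6.00 to 6.30) were lowest in WT Qa2- cells for the first and the last, and in miR-142-/- Qa2- cells for the B cell list.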

How the data were processed

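RNA of 4 sorted thymocyte samples was hybridised to 1 array each. The authors deposited log2 expression values per probe set. Per the submitters' processing notes, RMA and Partek were used. Neither has a version given in the sources used here. RMA equalises array distributions and compresses differences of dim probe sets. Everything else was computed here with Python 3.11.15, pandas 2.3.3 and numpy 2.4.6. Of 35557 probe sets, 21789 list 1 gene, 1621 several and 12147 none in the platform annotation, and 21698 of the 21789 matched a GRCm38.p6 gene by Entrez ID. The 999 genes with several probe sets took the one with the highest mean. Array medians were log2 6.61 to 6.74, correlations between arrays 0.982 to 0.991. With 4 arrays, their number limits precision.

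Named genes were the 10 members, label checks, up to 4 genes per list with the largest difference, and the 10 and 5 genes nearest in pattern, with genes of small counts named after their values were seen. The members, lists and motifs were chosen with earlier results of these data known. Counting was checked on data with known differences. Alternatives were centring, quantile normalization, averaged probe sets, other background filters and a 1.5-fold limit.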

Additional observations from a re-analysis of the deposited data

Results flagged for a closer look

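For 4 of the 10 genes the stage difference (Qa2+ minus Qa2-, log2) had opposite signs in the genotypes. Nkg7 differed by 1.69 in miR-142-/- and by -1.32 in WT. Klrd1 differed by 0.57 in miR-142-/-, where both arrays were below background, and by -1.83 in WT. Ccl3 differed by 1.77 in miR-142-/- and by -0.74 in WT, where both arrays were below background. Ccl5 differed by 0.13 in miR-142-/- and by -0.30 in WT.

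For 3 genes the genotype difference (miR-142-/- minus WT, log2) had opposite signs in the populations. Klra3 differed by 0.65 in Qa2+ and by -0.10 in Qa2- cells. Ccl3 differed by 2.46 in Qa2+ cells and by -0.05 in Qa2- cells, where both arrays were below background. Ccl4 differed by -0.13 in Qa2+ cells and by 0.07 in Qa2- cells, where both arrays were below background. Each group is 1 array, so whether any of these pairs of differences differ was not tested.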

How the results depend on the processing

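No paired analysis was possible because each group has 1 array and no result comes from a test, and for the same reason no replicate could be left out. With each array centred on its median and after quantile normalization, the 80 recomputed differences of the members moved by at most 0.11 on the log2 scale and 0 changed sign. The other settings leave these differences as they are, since each member has 1 probe set. Of the counts and medians, 169 stayed within 1.5 times their value or the scatter of receptor genes, and 29 did not. With each array centred on its median, 102 genes were higher between stages in WT, and after quantile normalization 2 related genes were higher between stages in miR-142-/-. With the background at the 99th percentile of receptor genes (log2 6.75), only Nkg7, Klra3, Ccl5 and Xcl1 could be counted. The members counted then numbered 3 lower for genotype in Qa2- cells, 0 higher for genotype in Qa2+ cells, 1 higher for stage in miR-142-/- and 3 lower for stage in WT, and 1 related gene was lower for genotype in Qa2- cells. With genes above background on at least 1 array, 9 related genes were lower for genotype in Qa2- cells and 13 for stage in WT, and 11 and 15 with no filter. At 1.5-fold, 391 genes were higher and 471 lower for genotype in Qa2- cells, 574 and 615 for genotype in Qa2+ cells, 334 and 458 for stage in miR-142-/-, and 339 and 465 for stage in WT. Related genes then numbered 2 higher and 11 lower for genotype in Qa2- cells, 3 and 11 for genotype in Qa2+ cells, 7 higher for stage in miR-142-/-, and 3 higher and 17 lower for stage in WT, and 2 members were higher and 3 lower for genotype in Qa2+ cells. With the other arrays raised to the background threshold, a setting added after seeing the data, 4 Klr genes of the natural killer complex had a WT Qa2- margin of at least 1, against 8 as deposited. Values near log2 5.87 are limited by signal over background, which concerns Ccl4 on every array and Gzmb, Klrd1, Klra3, Fasl, Ccl3 and Xcl1 on those where they read low.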
